A study of Mus musculus with 2 samples.

Results

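Notch signalling genes were examined in the lens of the wild-type mouse embryo at stage E12.5. The set held 10 genes, the ligands Jag1 and Jag2, the receptors Notch1, Notch2 and Notch3, the receptor modifier Lfng, the nuclear partners Rbpj and Maml1, and the targets Hey1 and Hes1. The genes were listed with earlier results of these data known. Their probes were matched by symbol in the array annotation, and 14 probes of the 45281 on each array carried one of these symbols. The series holds 2 samples of total RNA, 1 of lens fibers and 1 of lens epithelium, both of wild-type mice at E12.5 and each hybridised to 1 Illumina array. Neither the labels nor the files used here state the strain, the number of embryos pooled or the way the tissues were separated. With 1 array per tissue there was no spread between samples, so no test was possible, and each difference below describes this pair of arrays.

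Notch is a receptor on the cell surface that is switched on by a ligand of the Jagged or Delta family on a neighbouring cell. Binding exposes the receptor to cutting by an ADAM protease and then by the gamma-secretase complex, and the freed intracellular part joins Rbpj and a Mastermind coactivator on DNA to turn on genes of the Hes and Hey families. In the mouse lens, Jag1 is known as a ligand of the fiber side, and Notch signalling is known to keep epithelial progenitors in the cell cycle.

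Promoter windows of 250 bases before to 50 bases after the gene start were taken from RefSeq (GRCm38.p6) and matched 8 of the 10 genes, with 9 windows. The targets Hey1 and Hes1 had no window and were not searched. The windows were searched on both strands for TGGGAA, the core of the Rbpj site, and for the E-box CACGTG, a palindrome. The longer form of the Rbpj site, CGTGGGAA, which contains the core, was searched in the same way. The core was present in 25.6% of all 32851 windows, the longer form in 0.734% and the E-box in 7.15%. Among the Notch genes, the windows of Lfng and both windows of Rbpj held the core, and Lfng alone of the 8 held the longer form and the E-box. The 250 bases before the start are shown for Lfng, the only gene of the 8 with the longer form. They are also shown for Jag1, the only gene of the set with a measured ratio, whose window held none of the 3 motifs. Capitals mark the motifs, on the strand of the gene, 5′ to 3′. The Lfng bases lie at chr5:140607091-140607340 on the plus strand and the Jag1 bases at chr2:137116521-137116770 on the minus strand.
Lfng: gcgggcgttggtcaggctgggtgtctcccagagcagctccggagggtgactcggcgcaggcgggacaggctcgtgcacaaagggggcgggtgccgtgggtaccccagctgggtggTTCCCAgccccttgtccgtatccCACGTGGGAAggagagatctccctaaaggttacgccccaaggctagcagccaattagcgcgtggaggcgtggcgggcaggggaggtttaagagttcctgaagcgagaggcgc
Jag1: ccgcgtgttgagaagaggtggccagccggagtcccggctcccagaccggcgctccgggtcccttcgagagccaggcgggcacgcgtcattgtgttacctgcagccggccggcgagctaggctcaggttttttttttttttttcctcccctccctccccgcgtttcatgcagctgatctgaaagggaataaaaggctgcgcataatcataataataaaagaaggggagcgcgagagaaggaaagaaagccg
In Lfng the longer form ran from base -110 to base -103, counted from the gene start, and overlapped the E-box at -112 to -107. A second core, on the opposite strand, ran from -135 to -130. All 9 windows, of which the 2 of Rbpj overlap, were above the median of all windows in GC content (55.7% to 86.0%, against 52.7%) and in CpG number (22 to 63, against 7). A match of letters is a description of the window and no evidence of binding.

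The intensities below were quantile normalized. The level that a probe had to pass, called the floor, was 32.1 on the fibers array and 44.6 on the epithelium array, the 95th percentile of 1580 probes for odorant, pheromone and trace amine receptors and for hair keratin-associated proteins, all assumed to be silent in the lens. The fibers sample carried its label's markers: 7 of 8 fiber markers on the array were at least 2-fold higher in fibers, among them Mip, the fiber water channel, at 19878 in fibers and 3206 in epithelium. The epithelium sample did so too, with 5 of 7 epithelial markers higher there by 2-fold or more. The epithelial regulator Foxe3 and Sox2 were below the floor on both arrays. Markers of each tissue also passed the floor on the other array. In epithelium Cryaa read 276, Crygc 207, Crybb1 183 and Grifin 77.3, while Lim2 and Bfsp2 were below the floor. In fibers Cdh1 read 164, Pdgfra 155 and Pax6 69.1, while Gja1 and Tfap2a were below the floor. How much of either tissue was in the other sample was not tested.

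Jag1, the ligand mutated in Alagille syndrome in humans, was the one member above the floor in both tissues, and so the only one with a ratio and not a bound. Its probe (ILMN_1257077) read 721 in fibers and 117 in epithelium, against 732 and 117 as deposited. The signal was 6.17-fold higher in fibers (log2 ratio 2.63). In tissue samples such as these, fewer cells of a type and less RNA per cell cannot be told apart. None of the 1580 silent-gene probes reached the fibers value, and 0.949% reached the epithelium value. Jag1 ranked at position 39 of the 2986 genes above the floor on both arrays when ordered by log2 ratio, within the top 1.31%. Jag2, the other Jagged ligand, read 8.06 in fibers and 0.897 in epithelium. Neither Jag2 value passed the floor, so no ratio was given.

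**Figure D1:**
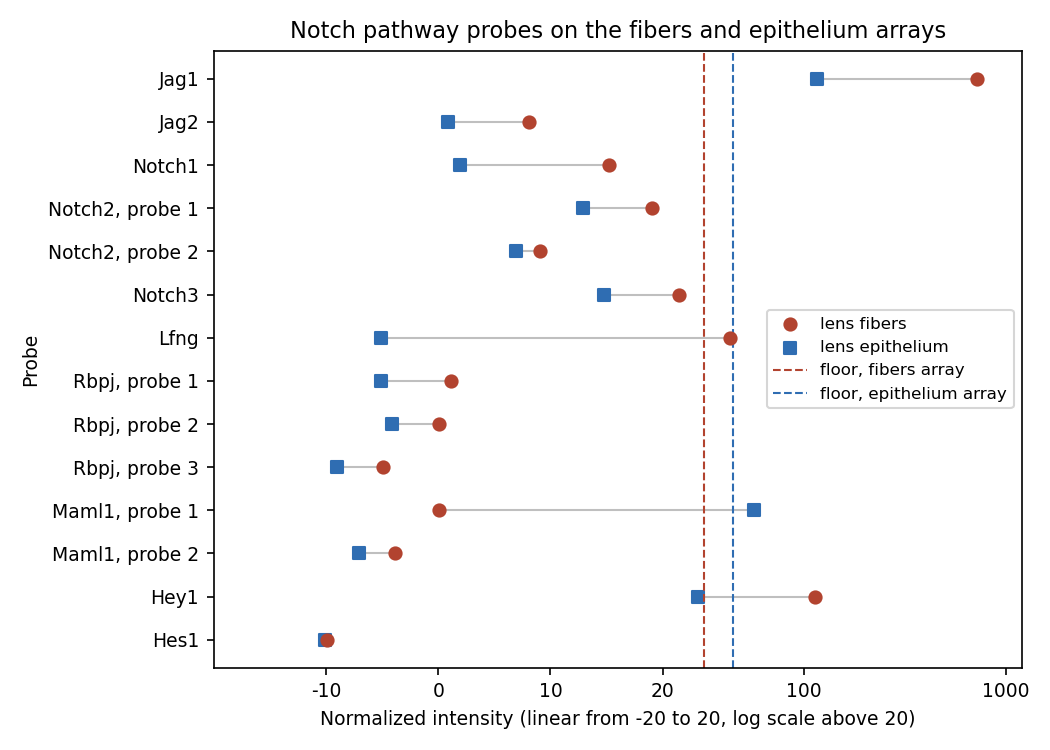
Normalized intensity of all 14 probes for the 10 Notch genes on the lens fibers array (circles) and the lens epithelium array (squares), 1 array each, with the floor of each array as a dashed line. Jag1 passes the floor in both tissues (721 in fibers, 117 in epithelium), Hey1 and Lfng in fibers alone and 1 Maml1 probe in epithelium alone.

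The 5 genes with a log2 ratio nearest to that of Jag1 were Mip (2.63), Timp3, an inhibitor of metalloproteinases (2.60), Cct3, a subunit of a chaperonin (2.60), Sh3glb1, a membrane-curving protein (2.70), and Lamtor4, a lysosomal signalling scaffold (2.54). Likeness here rests on 1 ratio over 2 arrays.

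The receptors were not measured above background. Notch1, a receptor used by many kinds of progenitor cell, read 15.2 in fibers and 1.90 in epithelium. Notch2 read 19.0 and 9.08 in fibers with its 2 probes, against 12.9 and 6.92 in epithelium. Notch3 read 24.1 in fibers and 14.8 in epithelium. All 4 receptor probes were below the floor on both arrays, so the arrays gave no direction for Notch1, Notch2 or Notch3. At these intensities, from 8.67% to 25.8% of the silent-gene probes were as bright or brighter in fibers, and from 20.1% to 48.3% in epithelium.

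Lfng encodes lunatic fringe, a glycosyltransferase that adds sugar to Notch and changes which ligands it answers to. Its probe read 43.3 in fibers and -5.08 in epithelium. The fibers value passed its floor and the epithelium value was below 0, but 43.3 is under the epithelium floor of 44.6, so no direction was given. As much excess in fibers as that of Lfng was seen for 14 of the 1580 silent-gene probes (0.886%). With no floor and an offset of 50, the fold was 2.08 in favour of fibers.

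Rbpj is the DNA-binding protein through which Notch acts. Its 3 probes read 1.09, 0.0969 and -4.91 in fibers and -5.08, -4.09 and -9.06 in epithelium, all below the floor. Maml1, a Mastermind coactivator, was the only member above the floor in epithelium and not in fibers. One Maml1 probe (ILMN_1247450) read 0.0969 in fibers and 56.8 in epithelium, at least 1.77-fold higher in epithelium. The other Maml1 probe, matched to a different accession, read -3.88 in fibers and -7.06 in epithelium. The probes thus disagreed, with signal in epithelium from one of them and none above background from the other. A difference in favour of epithelium as large as that of the brighter probe was present in 34 of the 1580 silent-gene probes (2.15%).

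Hey1, a transcriptional repressor and direct Notch target, read 113 in fibers and 29.9 in epithelium (probe ILMN_2690596). Only the fibers value passed the floor, which made Hey1 at least 2.54-fold higher in fibers (log2 bound 1.34). In fibers 0.633% of the silent-gene probes were as bright, and in epithelium 8.99%. The bound stood at position 364 of 1535 such bounds in favour of fibers, within the top 23.7%. With the floor at the 99th percentile of the silent-gene probes it was at least 1.02-fold. Hes1, the other target, read -9.92 in fibers and -10.05 in epithelium, among the dimmest probes of both arrays, with 98.8% of silent-gene probes as bright or brighter in fibers and 99.2% in epithelium.

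**Figure D2:**
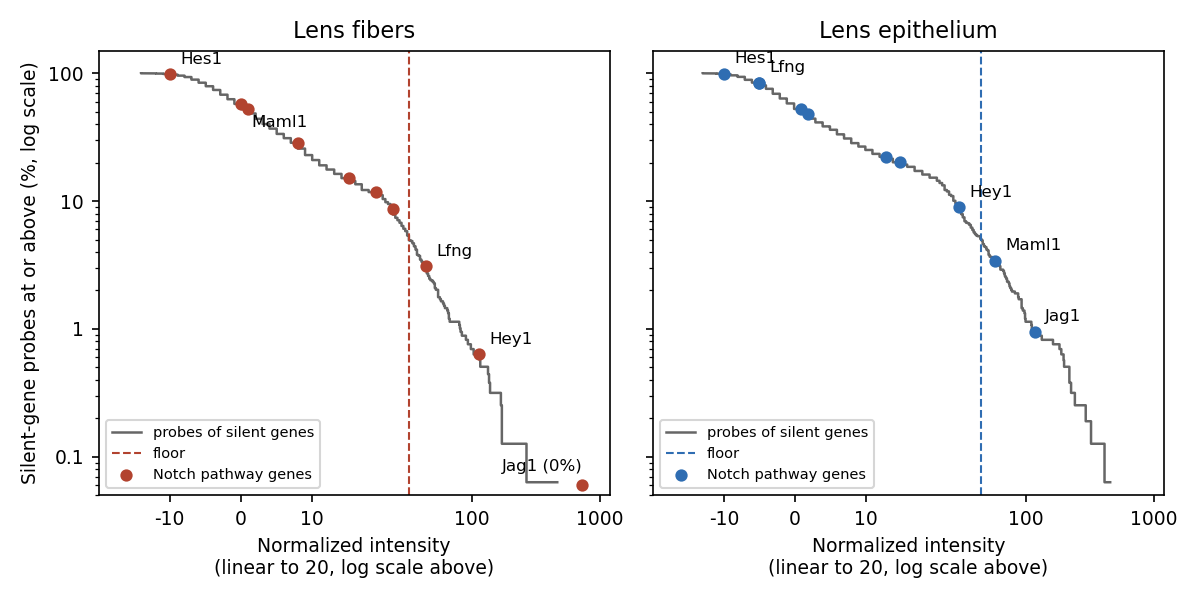
Share of the 1580 silent-gene probes at or above a given normalized intensity (grey line, log scale) on the lens fibers array (left) and the lens epithelium array (right), with the brightest probe of each of the 10 Notch genes as a point and the floor as a dashed line. Jag1 in fibers lies beyond every silent-gene probe and is drawn at the bottom edge (0%), while Hey1 is reached by 0.633% of them in fibers and by 8.99% in epithelium.

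Of the 10 genes, 4 passed the floor in 1 tissue or both and 6 did not. Among all genes on the array, 33.9% passed it in 1 tissue or both. Of the 4, Jag1 and Hey1 were at least 2-fold higher in fibers, where 15.5% of all 6451 measured genes were. None of the 4 was higher in epithelium by 2-fold or more, where 18.5% of measured genes were. The median log2 value of the 3 members with a direction was 1.34, against -0.03 for the 5678 genes with one, where bounds enter at their own value. The members were chosen with earlier results of these data known. A gene that passed the floor in 1 tissue alone could also differ only in favour of that tissue. The counts therefore describe the members and support no direction. Below both floors, all 10 probes of the set read slightly higher in fibers, as did 56.0% of the 26299 named probes at that level. For Hes1, deposited at -10 on both arrays, that order came from the normalization alone.

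Scaling the arrays to housekeeping genes changed this split. The 9 housekeeping genes above the floor on both arrays had log2 ratios from -0.71 (Vcp) to 3.17 (Rab7). The ratio of Jag1 (2.63) lay within that range. Further housekeeping genes passed the floor in fibers alone (Psmb2, Chmp2a, Hprt, Vps29, Emc7 and Reep5). Their log2 bounds, which can only favour fibers, ran from 0.11 (Reep5) to 3.09 (Psmb2). Having no ratio, they did not enter the median used for the scaling. The median of the 9 was 0.84, and setting it to 0 lowered the log2 ratio of a probe by that amount. It could also change which probe of a gene was the brightest, which it did for no member that was measured. Jag1 was then 3.44-fold higher in fibers, Hey1 at least 1.41-fold higher in fibers and Maml1 at least 3.17-fold higher in epithelium. By 2-fold or more, 1 member was then higher in fibers and 1 in epithelium, where 4.53% and 42.8% of all measured genes were (4.57% and 41.7% with the probe of each gene kept as before, an alternative chosen after seeing the data). Among the receptors below the floor the order turned for Notch2, at 14.2 in fibers and 17.2 in epithelium, and for Notch3, at 18.0 in fibers and 19.8 in epithelium. Which scaling is closer to the RNA content of the tissues was not tested. In the plot of ratios by processing, Jag1 kept its direction wherever it had a value. Jag1 has 1 probe, which stayed above both floors. The common floor, the 99th percentile floor and the mean of all probes therefore had to return the same log2 ratio (2.63). No second probe could check it.

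**Figure D3:**
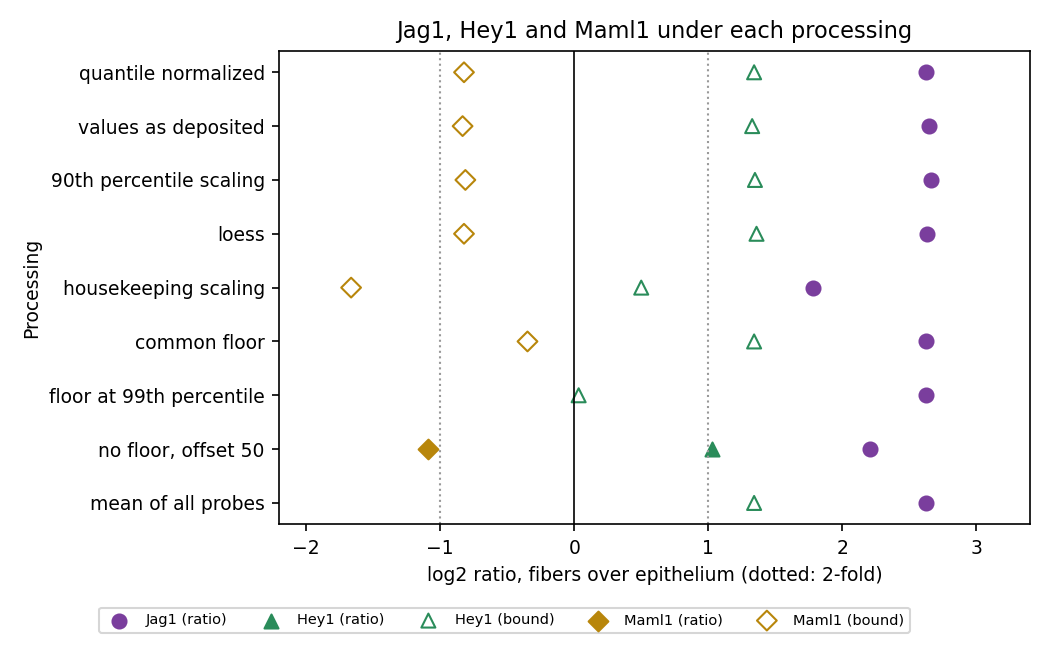
Log2 ratio of lens fibers over lens epithelium for Jag1, Hey1 and Maml1 under the main processing and 8 alternatives, with filled symbols for ratios and open symbols for bounds. Jag1 runs from 1.78 to 2.67 and Hey1 from 0.03 to 1.36, and Maml1 is negative wherever it has a value. Maml1 has no value with the floor at the 99th percentile or with the mean of all probes. A bound of Hey1 or Maml1 cannot turn sign, because it is then given no direction.

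Of 56 other genes of the pathway, listed by role, 49 had a named probe and 18 passed the floor in 1 tissue or both. By 2-fold or more, 4 of the 18 were higher in fibers and 1 in epithelium, read against the 15.5% and 18.5% of all measured genes. The median log2 ratio over the 10 above the floor on both arrays was -0.09, against -0.19 over all 2986 such genes. When scaled to housekeeping genes, 2 of 18 were higher in fibers and 7 in epithelium, read against 4.53% and 42.8% of all measured genes. With the probe of each gene kept, the 7 became 6, without Ncstn, against 41.7%.

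Of the 5 genes past 2-fold, 3 belong to the proteases that cut the receptor, a role that held 6 of the 18 measured genes. These 3 did not share a direction. Adam17, a shedding protease that cuts Notch among many substrates, read 632 in fibers and 61.7 in epithelium (10.3-fold higher in fibers), and its second probe gave at least 1.76-fold in the same direction. Adam10, the main protease of ligand-induced Notch cutting, read 262 in fibers and 12.9 in epithelium, at least 5.86-fold higher in fibers. A second Adam10 probe, at 11.1 in fibers and 3.90 in epithelium, was below the floor. With the floor at the 99th percentile of the silent-gene probes, Adam17 was at least 5.72-fold and Adam10 at least 2.37-fold higher in fibers, and with the mean of all probes Adam10 was at least 3.06-fold higher. Psenen, a subunit of gamma-secretase, went the other way, at 58.3 in fibers and 260 in epithelium, a log2 ratio of -2.16 (4.46-fold higher in epithelium). The gamma-secretase subunits Ncstn (log2 ratio 0.28) and Aph1a (-0.31) and the convertase Furin (-0.18), which trims the Notch precursor, differed by under 2-fold. A second Ncstn probe gave -0.34, with the sign turned. When scaled to housekeeping genes, Aph1a and Furin were at -1.15 and -1.02. Ncstn was at -0.57 with the same probe, and at -1.18 through its second probe, which was then the brighter one.

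Ligand processing was represented by Mib1, the ubiquitin ligase that drives ligand endocytosis in the signal-sending cell. It read 146 in fibers and 26.9 in epithelium, at least 3.28-fold higher in fibers. Its relative Mib2 had a log2 bound of 0.59 in favour of fibers. Dner, an atypical transmembrane Notch ligand, read 110 in fibers and 17.9 in epithelium, at least 2.47-fold higher in fibers, while its second probe was below 0 on both arrays. The Delta ligands Dll1, Dll3 and Dll4 were below the floor on both arrays, at most 4.07 in fibers and 2.88 in epithelium. Dner and Mib1 had bounds under 2-fold when scaled to housekeeping genes (at least 1.38-fold and at least 1.83-fold), and Adam17 and Adam10 were not (5.72-fold and at least 3.27-fold). With the floor at the 99th percentile Dner had no direction and the Mib1 bound was 1.32-fold in favour of fibers, and with the mean of all probes Dner was at least 1.15-fold higher.

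The remaining measured pathway genes had ratios or bounds under 2-fold, or no direction (Fbxw7 and Tle1). Nrarp, a feedback inhibitor and Notch target, read 81.5 in fibers and 143 in epithelium, a log2 ratio of -0.81 opposite in sign to that of Hey1. Numb, an antagonist of Notch, was at least 1.42-fold higher in epithelium by the brightest of its 6 probes. That probe read 5.08 in fibers and 45.6 in epithelium, close to the epithelium floor of 44.6. With 44.6 as the floor of both arrays, the log2 bound of Numb was -0.03. With the floor at the 99th percentile, or with the mean of all probes, Numb was below the floor. Dtx2, a Deltex ubiquitin ligase, read 1104 in fibers and 1594 in epithelium (log2 ratio -0.53), and its second probe, which passed the floor in fibers alone, had a log2 bound of 0.17. Tle4, a Groucho corepressor, had a log2 ratio of 0.14, Dtx3l one of 0.04, and the glucosyltransferase Poglut1 one of 0.00. Spen, a corepressor that binds Rbpj, was at least 1.46-fold higher in fibers. Of these, Nrarp, Numb and Dtx2 passed 2-fold in favour of epithelium when scaled to housekeeping genes (log2 -1.65, -1.35 and -1.37). Under that scaling Tle4, Dtx3l and Poglut1 were negative too (-0.70, -0.80 and -0.84), and Spen and Mib2 had no direction. The targets Hes5, Hes6, Hes7, Hey2 and Heyl were all below the floor.

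**Figure D4:**
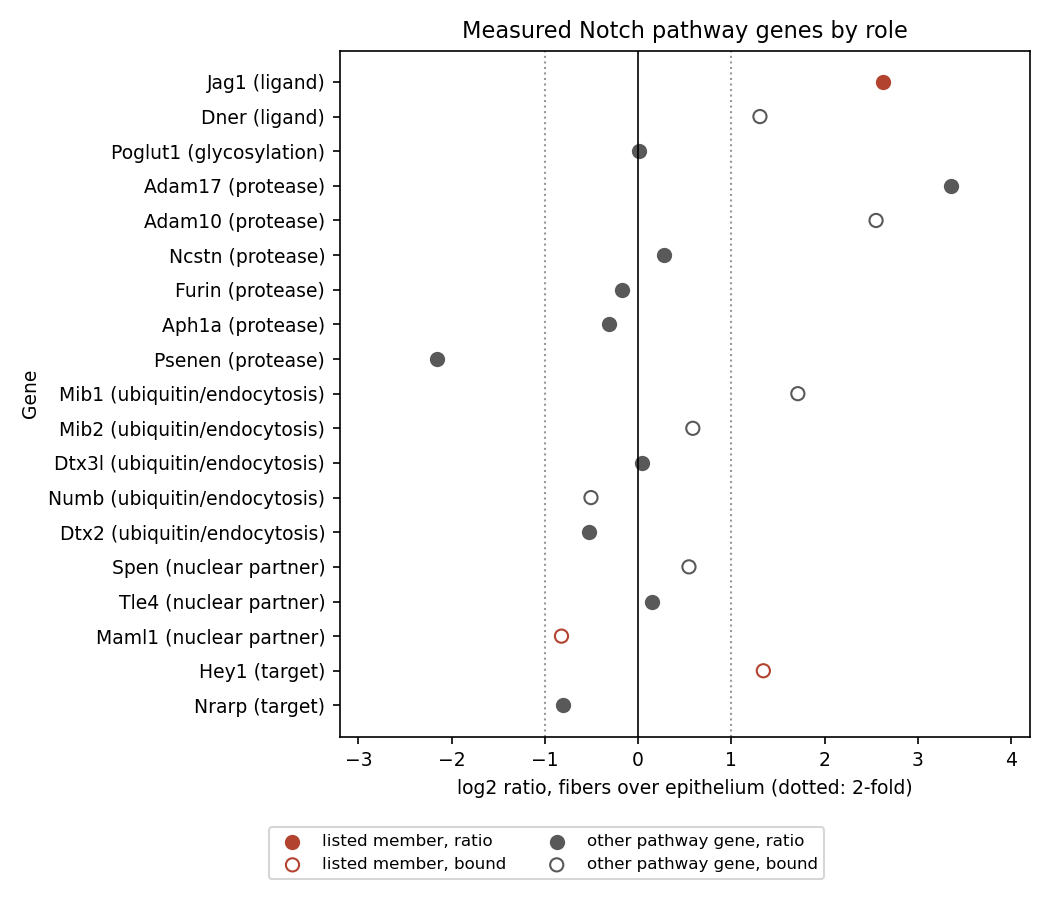
Log2 ratio of lens fibers over lens epithelium for the measured Notch pathway genes with a direction, grouped by role, with filled points for ratios and open points for bounds. Jag1 (2.63), Hey1 (1.34), Adam17 (3.36), Adam10 (2.55), Mib1 (1.71) and Dner (1.31) lie beyond 2-fold in favour of fibers and Psenen (-2.16) in favour of epithelium.

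Jag1 and Hey1 are also active in blood vessels, which surround the embryonic lens. Of 10 endothelial markers, 1 was above the floor on either array. That marker was Tek, an angiopoietin receptor, at 83.4 in fibers and 6.92 in epithelium, at least 1.87-fold higher in fibers. The intensities of the 10 summed to 103 in fibers, mostly from Tek, and to 107 in epithelium. The epithelium sum held only values below the floor, the highest being Tie1 (34.8), Sox17 (26.9) and Kdr (22.0). The sums therefore do not compare the vessel content of the tissues. The defining markers Pecam1 (-1.85 in fibers, 2.88 in epithelium) and Cdh5 (4.07 in fibers, 3.90 in epithelium) were near 0. Of 6 pericyte and mural markers, 2 were above the floor, Acta2 (log2 ratio 0.69) and Cspg4 (-0.72), with sums of 266 in fibers and 303 in epithelium, and Pdgfrb was below 0 on both arrays. Retinal progenitor markers, of a tissue where Notch genes are also active, summed to 144 in fibers and 1265 in epithelium. Nearly all of that sum was Sfrp2, at 140 in fibers and 1256 in epithelium, the single one of 5 on the array above the floor, while Rax, Lhx2 and Six6 were near 0. Of 7 periocular mesenchyme markers on the array, 1 was above the floor, Tfap2b, at 36.2 in fibers and 209 in epithelium, and the list summed to 62.9 in fibers and 239 in epithelium. Among surface ectoderm markers 1 of 6 was above the floor, among erythroid markers 2 of 5 and among macrophage markers 2 of 5, none of them with a ratio or bound of 2-fold or more. The part of these cells in the Notch gene values was not tested.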

How the data were processed

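Biotin-labelled total RNA, purified on columns, was hybridised to Illumina arrays, per the labels' protocols. The authors deposited 1 linear intensity per probe and array, in whole numbers with a lowest value of -16 on both arrays. As 38.7% of the fibers and 38.0% of the epithelium values were at or below 0, a background had been subtracted. No source used here gives its method or any scaling.

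Percentiles of the arrays differed by up to 0.58 on the log2 scale. The deposited intensities were therefore quantile normalized on the linear scale (Python 3.11.15, numpy 2.4.6), which hides any difference in total RNA. The median was 4 in fibers and 5 in epithelium, and 1 unit is a large log2 step at such intensities. For brighter probes the arrays were closer: scaling to the 90th percentile moved Jag1 from 732 to 737 in fibers and from 117 to 116 in epithelium. Probes were named by the platform annotation (34885 with 1 symbol, 18 with several, 10378 with none), which covered 19057 genes. The brightest probe over both arrays stood for a gene in counts. Genes that passed the floor in both tissues were given a ratio (fibers over epithelium, log2). A gene that passed it in 1 tissue has a bound against the other array's floor, and no direction where that bound is under 1. The named genes were all members, other pathway genes past 2-fold or above the floor on both arrays, the 5 nearest ratios to Jag1 and measured markers. Other pathway genes and markers below a floor, bounds under 2-fold and further probes were named after their values were seen. The members and lists were chosen with earlier results of these data known. With 1 array per tissue no test was made, and precision is limited by the number of arrays. In all, 11 alternatives were tried, and 1 more chosen after seeing the data (housekeeping scaling with each gene's probe kept).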

Additional observations from a re-analysis of the deposited data

How the results depend on the processing

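The counts of members higher by 2-fold or more, 2 in fibers and 0 in epithelium, were compared with 11 alternatives and 1 more chosen after seeing the data, housekeeping scaling with the probe of each gene kept. In fibers the count was 1 with housekeeping scaling (1 with probes kept), 1 with the floor at the 99th percentile and 1 at a 3-fold limit, with 3 as the highest count, reached with no floor. In epithelium it was 1 with housekeeping scaling (1 with probes kept), 1 with no floor and 1 at a 1.5-fold limit. With the second brightest probe no member was measured (0 in fibers), because Notch2, Rbpj and Maml1 are the members with several probes. For the other pathway genes, 4 in fibers and 1 in epithelium, the counts in fibers were 2 with housekeeping scaling (2 with probes kept), 6 with no floor, 2 with the 99th percentile floor and 0 with the second brightest probe, and in epithelium 7 with housekeeping scaling (6 with probes kept), 0 with the second brightest probe and 2 at a 1.5-fold limit. Values as deposited, scaling to the 90th percentile, loess, a common floor and the mean of all probes left both pathway counts in each direction within 1.5 times. The log2 ratio of Jag1 was not reversed where it had a value, but every value came from the same 2 readings of its 1 probe. The bounds of Hey1 and Maml1 could not turn sign, because such a bound is given no direction. With no floor, where their sign was free to turn, Hey1 was at 1.03 and Maml1 at -1.09. Changes were read against the SD of 1.06 between log2 ratios of probes of the same gene (472 genes). For the 6 members below the floor, signal over background limited what could be seen. No paired analysis was possible because each tissue has 1 array.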
